A study of Mus musculus with 56 samples.

Results

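The genotype label was compared over every mouse of the study: 28 mice labelled as skeletal muscle HuR knockouts (HuRm-/-) against 28 controls, 56 of the 56 sequenced. The members were chosen by label alone, and the 4 combinations of sex and wheel, with 14 mice in each (7 of each genotype), entered as blocks, so that every labelled mouse was set against controls of its own sex and wheel. The measurement was the number of reads per gene in whole gastrocnemius, a calf muscle made mostly of fast fibres. All mice were C57Bl/6 on chow 5015 diet. The labels give 5 months of age, and running or locked wheels for 10 weeks, from week 10 to week 20. Controls were HuR fl/fl littermates, so both genotypes carried the floxed Elavl1 allele, and the labelled mice in addition carried Cre recombinase driven by the Mlc1f promoter, which is that of Myl1. The Cre acts in muscle fibres, while the tissue also holds nerve, vessel, connective tissue, fat and blood cells. In whole tissue, fewer cells of a type and less RNA per cell cannot be told apart. Nothing in the labels ties mice to litters or cages, so p-values measure the spread between mice.

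HuR, encoded by Elavl1, is an RNA-binding protein that is present in nearly every cell type and binds AU-rich stretches, mainly in 3′ untranslated regions (3′UTRs), where it often stabilises the mRNA. In skeletal muscle it has been studied in the formation of muscle fibres and in the use of fatty acids as fuel. Loss of such a protein can lower some target mRNAs and raise others, because the same stretches are also bound by proteins that promote decay.

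Total counts per mouse ran from 6639782 to 21633091, with a median of 12575977 in the labelled mice and 11978782 in the controls (permutation p = 0.594). The mean TMM scaling factor was 1.02 in labelled mice and 0.98 in controls (adjusted permutation p = 0.000507). Also different were the genes detected (15189 and 15055, 0.021), the share of the 10 genes with most counts (42.4% and 43.5%, 0.0019) and that of Myl1 (0.72% and 1.01%, 0.0002). The shares on Gm42418 and on mt-Rnr1 and mt-Rnr2 did not differ (0.692 and 0.519). Xist and Ddx3y matched the labelled sex in 56 of 56 mice, and no pair of mice in a group agreed within counting noise (chi-square per degree of freedom of 3.7 or more in every pair). The share of counts on the mitochondrial genome was 24.6% ± 1.62 (SD, n = 28) in labelled mice and 26.5% ± 2.58 in controls. The mean difference of -1.90 points was larger than labels permuted within blocks usually gave (permutation p = 0.0002, adjusted over 8 library measures), while single mice varied by as much.

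The targeted gene did not fall. Elavl1 (ENSMUSG00000040028, chromosome 8, 4285382 to 4325413 on GRCm38, minus strand) was measured in CPM, the counts in each 1e+06 of a library after TMM scaling. In locked females it was lowest 38.9, median 44.5 and highest 48.2 CPM in controls, and 37.9, 47.9 and 62.3 in labelled mice. In running females it was 49.3, 51.5 and 61.3 in controls, and 49.2, 52.8 and 62.5 in labelled mice. Locked males had 42.0, 54.0 and 61.9 as controls, and 45.3, 50.5 and 58.6 under the HuRm-/- label. Running males had 27.8, 54.4 and 60.9 as controls, and 53.2, 61.3 and 69.8 under the label. The groups overlapped in every block. Only 2 of 28 labelled mice were below all controls of their block and 8 were above all of them. The pooled log2 fold change, labelled minus control, was 0.13 ± 0.06 (SE), with limma adjusted p = 0.172 and a two-sided permutation p of 0.0516, and its sign was not the same in each block. By block it was 0.11, 0.01, -0.05 and 0.44 in locked females, running females, locked males and running males. Only running males were called, as higher (limma adjusted p = 0.0242). There the controls MCE replicates 10, 13 and 25 had 30.8, 27.8 and 40.3 CPM, and the other controls 54.4 or more. The count table therefore shows no loss of Elavl1 mRNA under the label. The sources used here do not say which exons the floxed allele removes, and a count over the whole gene need not show the loss of part of it. Every direction below is therefore that of mice labelled HuRm-/-, in which these counts did not measure the loss of HuR.

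The gene whose promoter drives the Cre differed clearly. Myl1 (ENSMUSG00000061816, chromosome 1, 66924295 to 66945404, minus strand), which encodes the fast-fibre essential myosin light chain, was lowest 7507, median 9794 and highest 14049 CPM over the 28 controls, and 2320, 5730 and 13731 over the 28 labelled mice. It was below every control of its block in 21 of 28 labelled mice (5, 5, 5 and 6 of 7 in locked females, running females, locked males and running males), and above all of them in 1. The labelled mice had 63.8% of the control level (95% interval 54.8 to 74.4), log2 fold change -0.65 ± 0.11, limma adjusted p = 4.09e-05, permutation p = 2e-05. The labelled mice were not a single spread around that value. In order of Tmf1, a gene described with the decreases, they fell on 2 sides of a wide gap: 17 had 19.01 to 33.3 CPM of Tmf1 and 2320 to 6528 of Myl1, and the other 11 had 49.8 to 66.6 of Tmf1 and 7354 to 13731 of Myl1. The 11 highest mice were the same for both genes, 3 locked females, 3 running females, 2 locked males and 3 running males, and they lay at or near the control levels. A pooled fold change averages over both sides, and for Myl1 and Tmf1 it is the level of neither. Whether the genotype of these mice is that of their label was not tested, and no fit was run without them as a set, since they stand apart by measured levels and not by a label. The highest Myl1 of the labelled locked females, 13360 CPM in FH replicate 34, went with the highest Stab2 and the lowest Tnnc1 and Chrna1 of that group of 7.

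**Figure D1:**
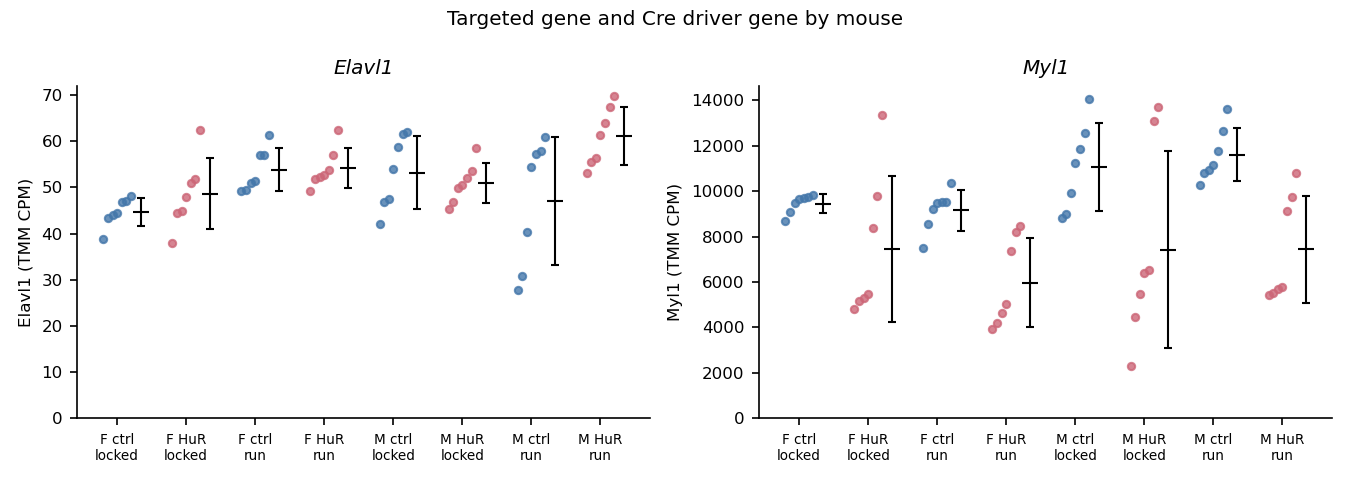
Elavl1 (left) and Myl1 (right) in CPM after TMM scaling, for each of the 56 mice, in 8 groups of 7 (F, female; M, male; ctrl, control; HuR, labelled HuRm-/-). Points are mice and bars are the mean ± SD; Elavl1 overlaps between labels in every block, and Myl1 is below all controls of the block in 21 of 28 labelled mice.

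Of 14321 genes that passed the low-count filter, 1692 (11.8%) differed between the labels at a limma adjusted p of 0.05 or less, 628 higher (4.39%) and 1064 lower (7.43%) in the labelled mice. With upper-quartile scaling in place of TMM the split was 800 higher and 875 lower. Most differences were small. The median absolute log2 fold change of the called genes was 0.23, and 169 of them (1.18% of those tested) differed by at least 1.5-fold, 107 higher and 62 lower. The median over all tested genes was 0.01.

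Called genes mostly kept their direction across blocks. The sign of the fold change was the same in each of the 4 blocks for 1452 of the 1692 called genes (85.8%; 10.1% of those tested), 533 higher (3.72%) and 919 lower (6.42%), against 15.6% of the genes not called and 23.9% of all tested genes. The same values entered the call and the signs, so this share is a description. An independent reading came from leaving out a block. Of 1432 genes called in the other blocks, 79.6% kept their sign in locked females, against 59.0% of all genes. In running females 80.5% of 1360 genes did so (58.7% of all), in locked males 88.02% of 1052 (62.4%), and in running males 89.0% of 870 (62.0%). The median fold change in the left-out block, in the direction of the others, was 0.14, 0.13, 0.19 and 0.22 on the log2 scale.

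Tested alone, the blocks gave far fewer calls. Running males had 376 called genes (2.63%), locked males 165 (1.15%), locked females 55 (0.384%) and running females 0, with 1801 genes at an unadjusted p under 0.05 in the last. Pooling the blocks called 1277 genes that no single block called. No gene separated the labels without overlap in 3 or more blocks, 4 did in 2 or more (0.0279%) and 220 in 1 or more (1.54%).

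**Figure D2:**
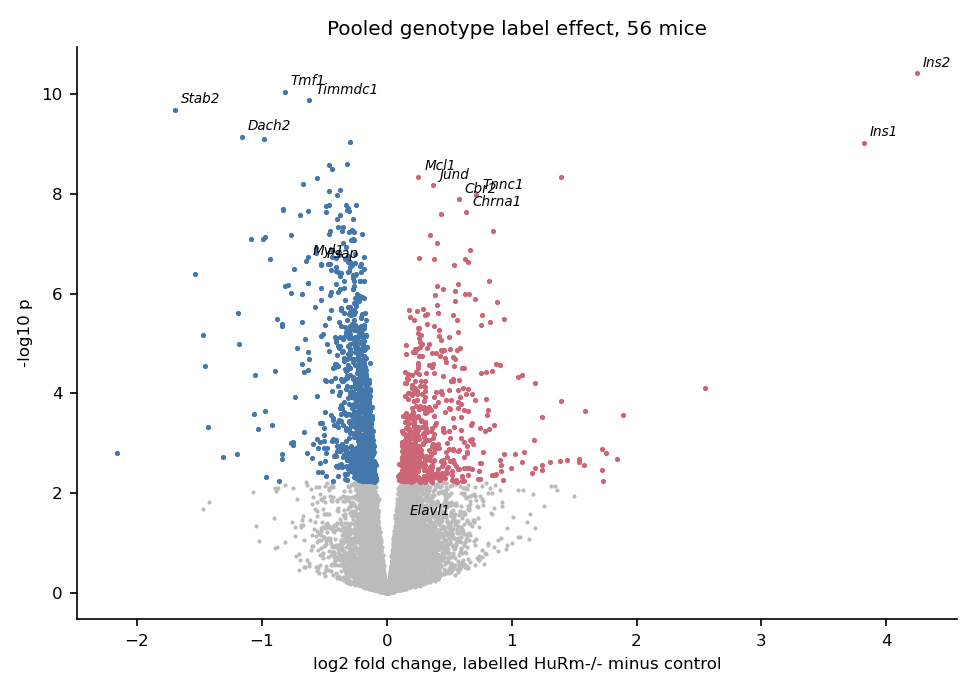
Pooled log2 fold change of each of 14321 genes (labelled HuRm-/- minus control, block as a term) against -log10 of its limma p; red and blue points are the 628 genes called higher and the 1064 called lower, grey points were not called. Called genes lower in labelled mice outnumber those higher, and Elavl1 lies among the genes not called.

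Among called genes with the same sign in each block, the decreases with the smallest p were Tmf1, Timmdc1, Stab2, Dach2, Gdap1 and Chchd3. Tmf1, which encodes a Golgi tethering protein, had the smallest p of these. Its lowest, median and highest levels were 52.7, 60.2 and 81.5 CPM in controls and 19.01, 28.1 and 66.6 in labelled mice. The labelled mice had 56.7% of the control level (49.1 to 65.5; log2 -0.82 ± 0.10, limma adjusted p = 6.41e-07), and 21 of 28 were below every control of their block. The median hides the gap: 17 labelled mice were at 33.3 or less and 11 at 49.8 or more, and those 11 were the mice with the highest Myl1 under the label.

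Mitochondrial proteins are encoded by Timmdc1, Chchd3 and Gdap1. Timmdc1, an assembly factor of complex I, had a log2 fold change of -0.62 ± 0.08 (limma adjusted p = 6.47e-07). Chchd3, which shapes the cristae of the inner membrane, had -0.29 ± 0.04 (1.68e-06), and Gdap1, an outer membrane protein mutated in an inherited neuropathy, -0.98 ± 0.13 (1.68e-06). Timmdc1 was below every control of the block in 23 of 28 labelled mice. Dach2, a transcriptional corepressor that responds to muscle innervation, was at 5.68, 9.56 and 16.4 CPM (lowest, median, highest) in controls and at 0.98, 4.23 and 11.97 in labelled mice (-1.16 ± 0.16, 1.68e-06).

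Stab2, which encodes a scavenger receptor of sinusoidal endothelium, had the largest decrease. It was at 0.80, 2.86 and 7.50 CPM in controls and 0.07, 0.77 and 6.18 in labelled mice, that is 30.9% of the control level (22.7 to 42.0; log2 -1.70 ± 0.22, limma adjusted p = 7.39e-07). Levels of a few CPM rest on few reads and carry more counting error. Next in size were the long noncoding A930003A15Rik (-1.54) and Gm10032 (-1.47), 4933415F23Rik (-1.46), Neto2 (-1.19, an auxiliary subunit of kainate receptors), Dach2, B230312C02Rik (-1.09), Ccdc122 (-1.05), Avil (-0.99, the actin-binding protein advillin) and Gdap1. Ccdc122 was not called by edgeR's quasi-likelihood test.

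Increases with the smallest p were Mcl1, B230369F24Rik, Jund, Tnnc1, Cbr2 and Chrna1. Mcl1, an anti-apoptotic BCL2 family member, was at 88.1, 99.9 and 115 CPM (lowest, median, highest) in controls and 99.1, 122 and 144 in labelled mice. That is 119% of the control level (113 to 125; limma adjusted p = 5.02e-06), and 19 of 28 labelled mice exceeded all controls of their block. Jund, a subunit of the AP-1 transcription factor, rose by a log2 fold change of 0.37 ± 0.05 (6.04e-06). Cbr2, a carbonyl reductase, rose by 0.58 ± 0.09 (8.85e-06). In both, the ranges of the labels overlapped over all mice but not within 1 of the blocks.

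B230369F24Rik, annotated as an antisense RNA on chromosome 1 (178313328 to 178318549, minus strand), had the largest increase among genes with the same sign in each block. In locked mice its lowest, median and highest were 0.33, 1.33 and 2.17 CPM in control females, 1.24, 6.05 and 7.03 in labelled females, 0.88, 1.87 and 2.84 in control males, and 1.59, 4.39 and 7.54 in labelled males. In running mice they were 0.54, 1.17 and 2.19 in control females, 2.19, 4.70 and 5.29 in labelled females, 1.16, 1.53 and 1.83 in control males, and 2.40, 4.87 and 6.496 in labelled males. The ranges did not overlap in the running blocks, and 23 of 28 labelled mice exceeded all controls of their block (263% of control, 198 to 349; log2 1.39 ± 0.20, limma adjusted p = 5.02e-06). Whether the counting used strand is not given in the sources used here, so its reads cannot be told from those of a gene on the other strand, and the same holds for H3f3aos, an antisense RNA next in the order of size after Tmem266 (1.19) and Mycn (1.08).

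Mycn, a transcription factor of growth and development, varied between blocks. Its fold change was 1.98 on the log2 scale in running females and 0.01 in running males, and it was not called when the 4 block effects were averaged in a fit of group means. The other large increases were H3f3aos (1.05), Tmem116 (0.94), Cntnap1 (0.92), Vwa3b (0.91), Fndc10 (0.89), 2010015M23Rik (0.87) and Ppfia4 (0.86), all at median levels under 4 CPM. Cntnap1, a protein of the contact between axon and glia, lost its call in 5 of the 56 fits that left out 1 mouse.

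**Figure D3:**
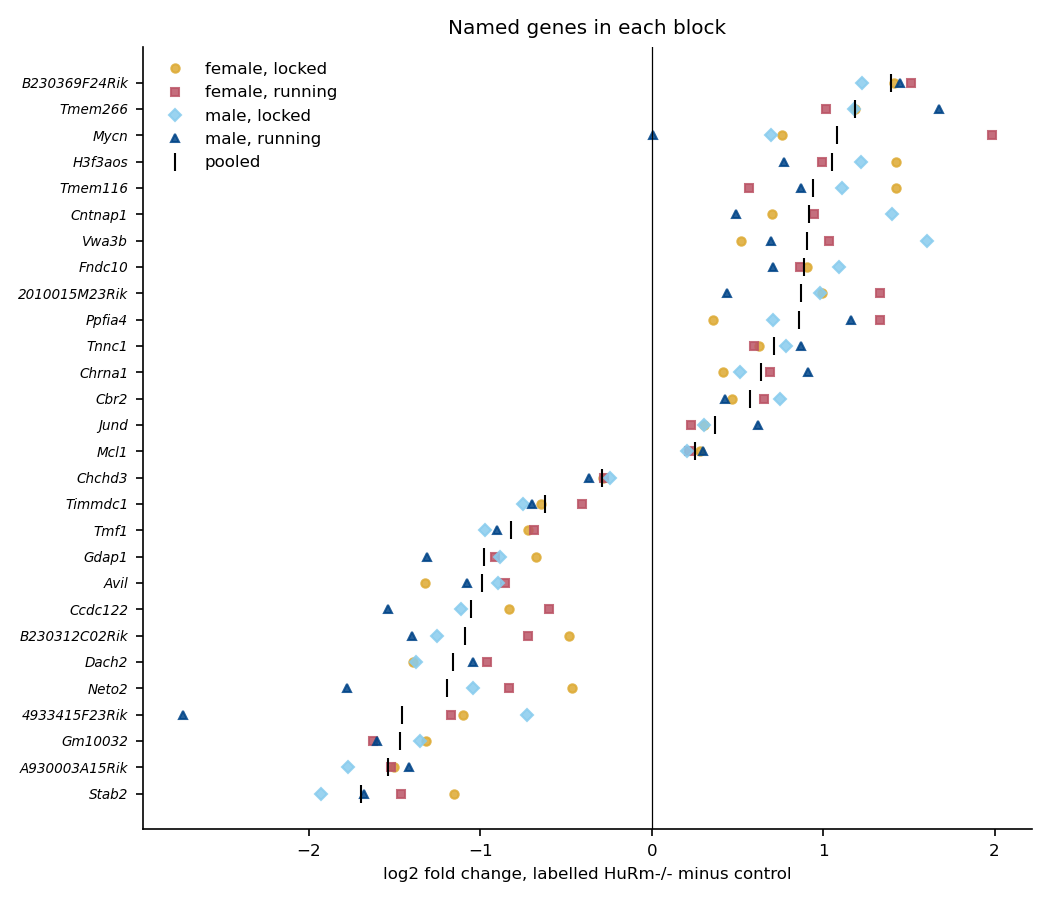
Log2 fold change (labelled HuRm-/- minus control) within each block for the genes with the largest changes and the smallest p-values among called genes with the same sign in each block; the black bar is the pooled value. Blocks lie on the same side of 0 by the choice of genes, Stab2 between -1.15 and -1.93, and Mycn spreads from 0.01 to 1.98.

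Of 16 tested genes of the slow contractile programme, 9 were higher (56.3%, against 4.39% of all genes called higher), none was lower and 7 did not pass, with all 9 of the same sign in each block, and the median log2 fold change was 0.31 beside 0.01 over all genes. The block medians were 0.44, 0.33, 0.40 and 0.38 in locked females, running females, locked males and running males. Tnnc1, slow and cardiac troponin C, was at 63.8, 82.7 and 129 CPM (lowest, median, highest) in locked control males and 92.8, 145 and 256 in locked labelled males. In locked females it was at 114, 151 and 173 in controls and 159, 232 and 328 in labelled mice. Over all mice it was at 164% of the control level (141 to 191; log2 0.72 ± 0.11, limma adjusted p = 7.69e-06), and 20 of 28 labelled mice exceeded all controls of their block. That level averages over both sides of the gap in Tmf1. Labelled mice above the gap had 87.8 to 110 CPM of Tnnc1 in males and 155 to 221 in females. Those below it had 98.9 to 256 in males and 230 to 328 in females.

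Further members that rose were Myh7, the slow myosin heavy chain (0.55 ± 0.10, limma adjusted p = 9.88e-05), Tnnt1 (0.57 ± 0.10), Myl2 (0.55 ± 0.10), Tnni1 and Tpm3 (both 0.44 ± 0.09), Csrp3 (0.60 ± 0.16), Myl3 (0.31 ± 0.07) and Atp2a2, the slow calcium pump (0.30 ± 0.07). On the fast-fibre list, which does not hold Myl1, 1 of 15 tested genes was lower (6.67%, near the 7.43% of all genes), Tnnc2 (-0.15 ± 0.04, limma adjusted p = 0.00549), and the median was -0.02. Its block medians were -0.01, -0.18, 0.05 and -0.03 in the same order of blocks, and in running females 12 of 15 were below 0. Among 13 myosin light chains and their kinases 3 were higher and 3 lower (46.2% called, against 11.8% of all genes). The 3 lower were Myl1, Myl4 and Mylk4, and the call of Mylk4 was lost in 6 of the 56 fits that left out 1 mouse. With the mean of the slow list as a covariate, an alternative added after the data were seen, 37 genes were called in place of 1692, and Myl1 was at -0.26 (adjusted p = 0.28). The list differs between the labels, so that fit removes what the list shares with the label.

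Subunits of the respiratory chain, which carries out oxidative phosphorylation, were lower by small amounts. Of 76 nuclear-encoded subunits tested, 39 were lower (51.3%, against 7.43% of all genes called lower), none higher, 38 of them with the same sign in each block, and 72 of 76 had a fold change below 0. The median was -0.11. By block it was -0.10 in locked females, -0.09 in running females, -0.08 in locked males and -0.20 in running males, and 21 subunits were called in running males alone, against 1, 0 and 2 in the other blocks in that order. Without the running males 15 subunits were called lower, and with the slow fibre or the Schwann list as a covariate 0 and 19. With upper-quartile scaling in place of TMM 32 were called lower. Of complex I 20 of 37 were lower, of complex II 1 of 4, of complex III 4 of 9, of complex IV 7 of 11 and of ATP synthase 7 of 15.

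Members that fell included Atp5j (-0.30), Atp5c1 (-0.27), Cox7b and Ndufa4 (both -0.23), each with the same sign in every block.

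The mitochondrial genome moved in both directions. Of 10 tested genes of the mitochondrially encoded list, 8 for proteins and 2 for ribosomal RNA, 6 were lower (60.0%, against 7.43% of all genes) and none higher. All 6 had the same sign in each block, between -0.17 for mt-Co1 and -0.28 for mt-Nd2, whose median was 43279 CPM in controls and 35688 in labelled mice (limma adjusted p = 0.000192). Of 12 tested transfer RNA genes 7 were higher (against 4.39% of all genes) and none lower, from 0.20 for mt-Tm to 0.54 for mt-Tt (2.52 CPM at the control median and 3.996 at the labelled median, limma adjusted p = 0.000881). Their sign was the same in each block for 4, and not for mt-Tm, mt-Tl2 and mt-Tq. These transfer RNA genes were picked out with their values known.

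Fuel use genes shifted in part. Of 34 genes of fatty acid uptake and oxidation, 8 were lower (23.5%, against 7.43% of all genes) and none higher, with a median of -0.08. The sign was the same in each block for 5 of the 8, and not for Lpl, Hadh and Hadhb. The 8 included Hadha, Hadhb, Hadh, Acadm and Acads, enzymes of beta-oxidation (-0.15 to -0.26), and Lpl, the lipoprotein lipase (-0.24 ± 0.06, limma adjusted p = 0.00772). Acads was not called without FCE replicate 26, FHE replicate 2 or MH replicate 9. Of 28 genes of the pyruvate dehydrogenase complex and citrate cycle, 7 were lower (against 7.43% of all genes) and none higher. The median of this list was -0.11. Among the 7 were Dlst (-0.27 ± 0.05, limma adjusted p = 9.08e-05), Mpc2, a mitochondrial pyruvate carrier subunit (-0.20), Dlat (-0.16), Sucla2, Suclg1 and Suclg2. Suclg2 lost its call in 11 of the 56 fits without 1 mouse. Of 29 glycolytic genes 2 were lower (6.90%, near the 7.43% of all genes), Pfkfb4 (-0.35 ± 0.07) and Pfkfb1 (-0.23 ± 0.07), and the median was -0.00. By block the glycolytic medians went in opposite directions, with 20 of 29 genes above 0 in locked males (0.08) and 24 of 29 below 0 in running females (-0.14). Of 20 glycogen genes 6 were lower (against 7.43% of all genes) and 1 was higher (against 4.39%), Ppp1r3d (0.50 ± 0.10). The strongest decrease was that of Phka1, the muscle phosphorylase kinase alpha subunit (-0.35 ± 0.06, limma adjusted p = 2.43e-05).

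Regulators of these pathways were among the small decreases. Of 23 genes of the PGC-1 and mitochondrial regulator list 5 were lower (21.7%, against 7.43% of all genes) and none higher. They were led by Ppargc1a, the coactivator PGC-1 alpha (-0.21 ± 0.05, limma adjusted p = 0.00139), and included Mfn1 (-0.15), while Esrra, Esrrg and Tfb2m lost their calls in 38, 36 and 15 of the 56 fits without 1 mouse. Of 23 insulin signalling genes 4 were lower, among them Prkab2, a regulatory subunit of AMP-activated kinase (-0.40 ± 0.06, 7.69e-06), and Akt2 (-0.20 ± 0.06), and 2 were higher, Grb14 (0.38 ± 0.10) and Tbc1d1 (0.24 ± 0.08). The share of this list called in either direction was 26.1%, against 11.8% of all genes. Of 46 lysosomal genes 5 were lower and 3 higher (17.4% called, against 11.8% of all genes), and of the 3, Atp6v0d1 and Grn lost their calls in 27 and 22 of the 56 fits without 1 mouse. Psap, the precursor of the saposins, was at 150, 195 and 273 CPM (lowest, median, highest) in controls and 70.5, 139 and 278 in labelled mice (-0.53 ± 0.09, limma adjusted p = 4.23e-05), with a fold change of -0.85 in locked females and -0.11 in running females. Of 30 genes of autophagy and atrophy 6 were lower (20.0%, against 7.43% of all genes) and none higher, led by Map1lc3b (-0.40 ± 0.06, limma adjusted p = 1.19e-05).

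**Figure D4:**
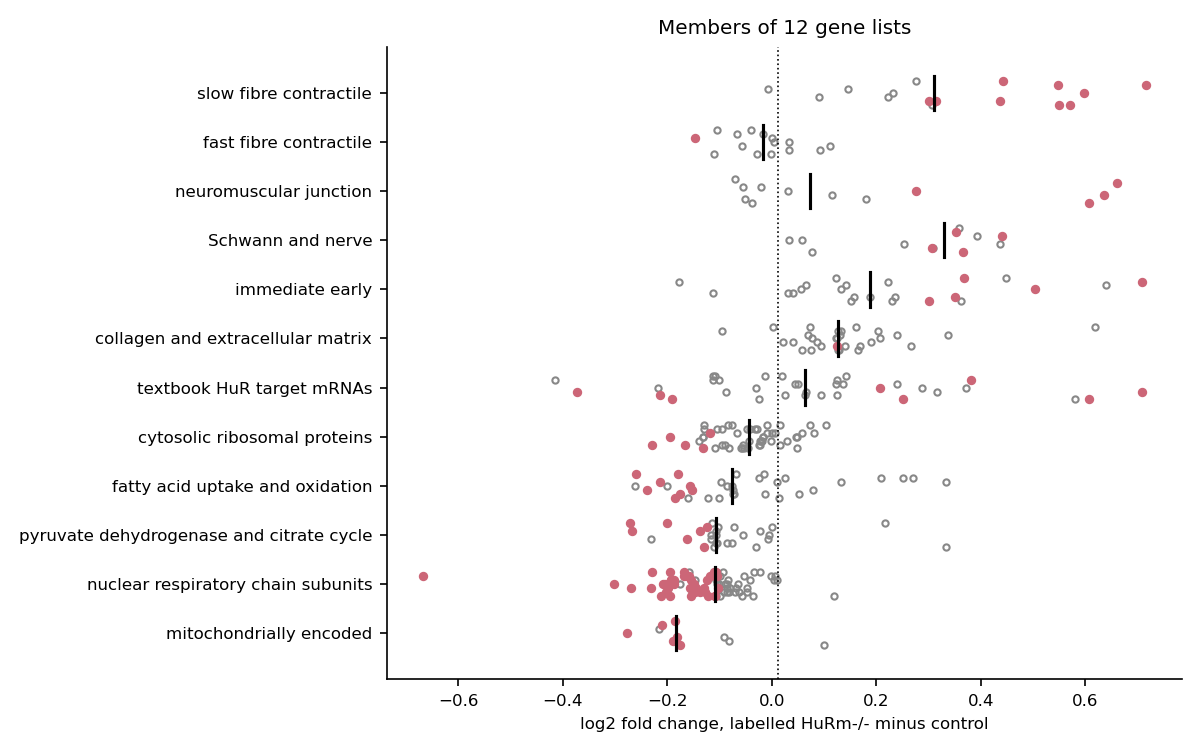
Pooled log2 fold change (labelled HuRm-/- minus control) of the tested members of 12 gene lists; filled points were called at a limma adjusted p of 0.05 or less, the black bar is the list's median and the dotted line the median over all tested genes, 0.01. Slow fibre members lie to the right with a median of 0.31, and respiratory chain members to the left with a median of -0.11.

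At the neuromuscular junction 4 of 12 tested genes were called higher (33.3%, against 4.39% of all genes) and none lower. The pooled fold change was above 0 for 7 of the 12 and below 0 for 5, with a median of 0.07. The 4 called genes were the acetylcholine receptor subunits Chrna1 (0.64 ± 0.10, limma adjusted p = 1.03e-05), Chrne (0.66 ± 0.12, 0.000108) and Chrnb1 (0.28 ± 0.06), and Ache, the acetylcholinesterase (0.61 ± 0.14, 0.00238). Chrna1 was at 11.7, 23.7 and 30.8 CPM (lowest, median, highest) in controls and 16.7, 35.4 and 60.6 in labelled mice, above all controls of the block in 21 of 28. The fold change of Chrne was 0.35 and 0.24 in locked and running females and 1.02 and 0.86 in males, a difference that did not pass the test of a sex interaction.

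Immediate early genes, which answer stimuli within minutes, had 5 of 23 higher (21.7%, against 4.39% of all genes) and none lower, with a median of 0.19: Fos (0.71 ± 0.17), Egr1 (0.50 ± 0.14), Jund, Zfp36 (0.35 ± 0.09) and Klf2. Klf2 (0.30 ± 0.10, adjusted p = 0.0311) lost its call without MC replicate 16, MH replicate 24 or MHE replicate 1. The median of the list was 0.003 in locked females and 0.02 in locked males, and 0.23 and 0.39 in running females and males, with all 5 calls of single blocks in running males. Of 26 heat shock and chaperone genes 3 small heat shock proteins were higher (11.5%, against 4.39% of all genes) and none was lower, Hspb3 (0.42 ± 0.09), Hspb6 (0.22 ± 0.06) and Hspb7, whose call was lost in 22 of the 56 fits without 1 mouse. Of 30 collagen and matrix genes 29 had a pooled fold change above 0, but 1 was called (3.33%, below the 4.39% of all genes), Col4a1 (0.12 ± 0.04, with the call lost in 7 of those fits). In locked females 22 of the 30 were below 0 (median -0.08), and in running females 30 of 30 were above 0 (0.33). Of 51 cytosolic ribosomal protein genes 5 were lower (9.80%, against 7.43% of all genes) and none higher, with a median of -0.04. Of 21 myogenic regulators 2 were higher (9.52%, against 4.39% of all genes), among them Myf5. Of 19 clock genes 1 was higher, Nr1d1, and 2 lower, Bhlhe41 (-0.49 ± 0.11) and Rora (15.8% called, against 11.8% of all genes). Myf5 and Nr1d1 were called in fewer than all fits, losing the call in 24 and 18 of the 56 without 1 mouse.

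**Figure D5:**
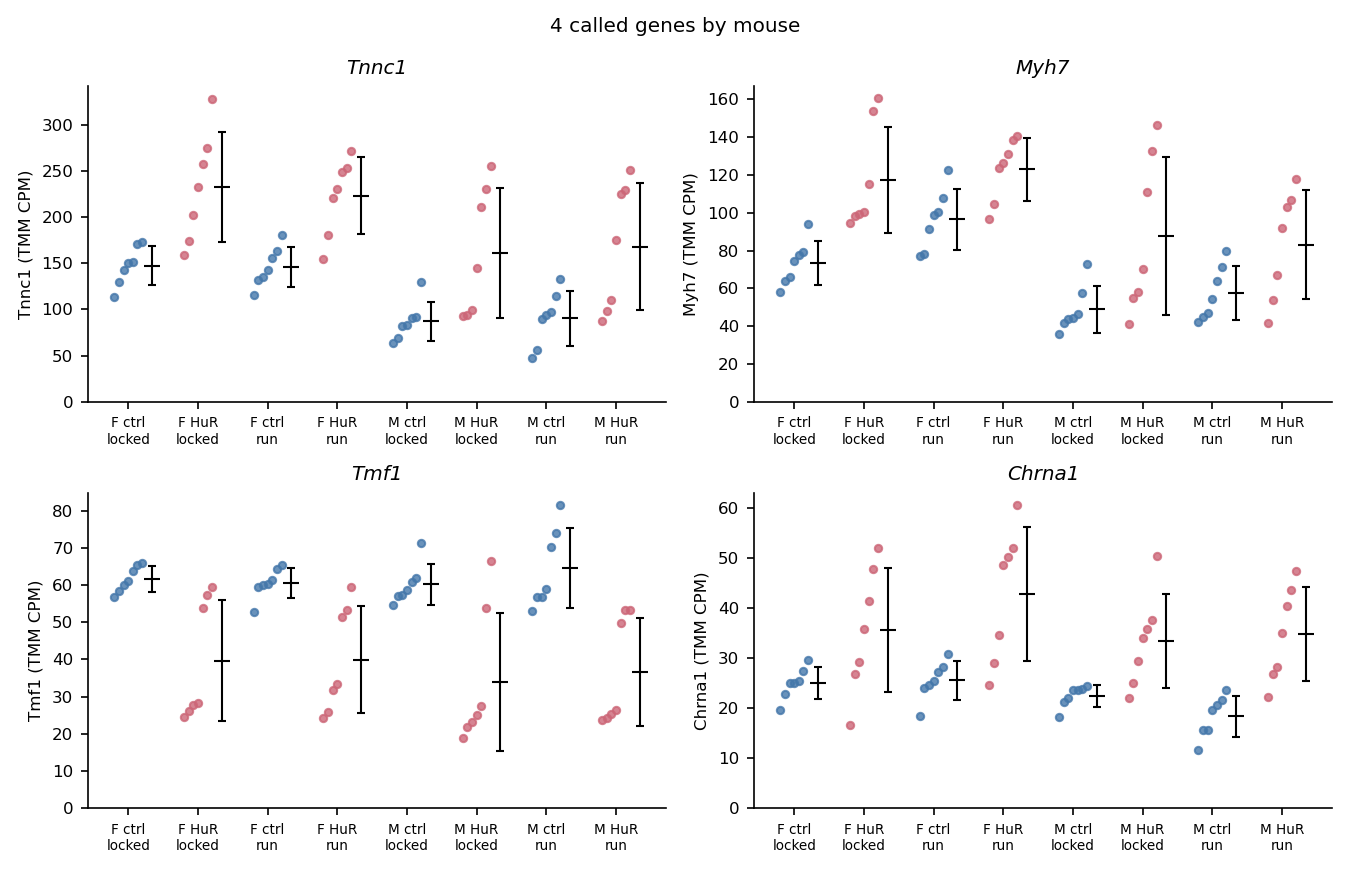
Tnnc1, Myh7, Tmf1 and Chrna1 in CPM after TMM scaling for each of the 56 mice, in 8 groups of 7 (labels as in the plot of Elavl1 and Myl1); bars are the mean ± SD. In Tnnc1, Myh7 and Chrna1 the labelled mice lie mostly above the controls of their block, and in Tmf1 21 of 28 labelled mice lie below all of them.

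For mRNAs known from textbooks as HuR targets, 5 of 35 tested were higher (Fos, Ache, Cdkn1a, Mcl1 and Ccnd1) and 3 lower (Bcl2, Ppargc1a and Cycs), 22.9% called against 11.8% of all genes, with a median of 0.06. Ccnd1 lost its call in 32 of the 56 fits without 1 mouse and its sign was not the same in each block. Of 25 other genes for proteins that bind AU-rich stretches, 2 were higher and 1 was lower. The share called in this list was near the 11.8% of all genes. Zfp36, which promotes decay of its targets, was higher (limma adjusted p = 0.00484). Hnrnpd was also higher (0.12 ± 0.04, limma adjusted p = 0.0295), and was not called without MCE replicate 10. Tia1 was lower, and its call was lost in 17 of the 56 fits without 1 mouse.

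The 3′UTRs of called genes were searched on the sense strand for the AU-rich nonamer TTATTTATT. It was present in 7.64% of the 3′UTRs of genes called higher (42 of 550), in 7.42% of those called lower (74 of 997) and in 8.13% of all tested genes with an annotated 3′UTR (1045 of 12857). The shorter ATTTA, which lies within the nonamer, occurred at a median of 1.23, 1.46 and 1.32 per 1000 bases in that order. With 3′UTRs split by length into 3 groups of nearly equal number, 1.46%, 1.85% and 2.28% held the nonamer in the shortest, 9.09%, 5.84% and 6.82% in the middle and 13.6%, 13.7% and 15.3% in the longest, so that genes called higher were above all genes in the middle group. Over all lengths the shares of both directions were below that of all genes, as a description without a test. Sites are shown for 3 HuR targets that moved in opposite directions, and for the called genes Chrna1 and Timmdc1, as 30 bases of the 3′UTR read 5′ to 3′ on the gene's strand (GRCm38, from the GENCODE M21 models), with the first nonamer in capitals. Fos and Chrna1 rose, while Bcl2 (-0.37 ± 0.08), Cycs (-0.19 ± 0.05) and Timmdc1 fell.
Fos, chr12:85477103-85477132, plus strand: tgttttcaatTTATTTATTaagatggattc
Bcl2, chr1:106542994-106543023, minus strand: aaaaaaagatTTATTTATTtaagacagttc
Cycs, chr6:50565207-50565236, minus strand: ttccactgccTTATTTATTacaaaacaaat
Chrna1, chr2:73564478-73564507, minus strand: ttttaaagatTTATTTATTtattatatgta
Timmdc1, chr16:38498420-38498449, minus strand: ccaaatattcTTATTTATTccgatcattga

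Marker lists of cell types and structures, skeletal muscle and the neuromuscular junction among them, were compared as mean log2 levels, with labels permuted within blocks. Of 14 lists 3 differed. The neuromuscular junction list, that of a structure and not of 1 cell type, was 0.19 higher in labelled mice (permutation p = 0.00014, adjusted over 14 lists). This is a mean over members, of which 5 of the 12 tested had a pooled fold change below 0. The Schwann cell and nerve list was 0.27 higher (permutation adjusted p = 0.0238). Its summed level ran from 136 to 350 CPM in controls (median 202) and from 119 to 395 in labelled mice (median 277). In the limma fit 4 of 12 Schwann markers were higher (33.3%, against 4.39% of all genes), among them Pmp22 (0.31 ± 0.08), Drp2 (0.37 ± 0.11) and Sox10 (0.44 ± 0.14). With that list as a covariate, added after the data were seen, 856 genes were called, and its part in the other results was not tested further. The remaining list was that of pancreatic islets, described with the insulin genes.

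In the pooled comparison, lists of liver (median summed level 107 CPM in controls and 147 in labelled mice), adipocytes (390 and 439), leukocytes (163 and 182), fibroblasts (2585 and 2721), endothelium (368 and 345), smooth muscle and pericytes (531 and 513), tendon (262 and 258), erythroid cells (1747 and 1562), brain (389 and 362) and skeletal muscle (71414 and 74867) did not differ beyond the spread between mice. Neither did brown adipocytes (adjusted p = 0.14), and of the pancreatic acinar list 0 genes were in the table. The liver list ran from 28.2 to 4229 CPM over the controls, so single mice held much more of it than others. The pooled values of several of these lists average over blocks of opposite sign, most widely those of liver and brain. The median log2 fold change of the liver markers was -2.07 and -1.24 in locked and running females, and 2.66 and 0.998 in locked and running males. That of the brain markers was 2.15 in locked males, and -0.52, -0.91 and -0.64 in locked females, running females and running males. Adipocyte medians ran from -0.46 in locked males to 0.37 in running females. Tendon medians ran from -0.28 in running males to 0.34 in running females, and erythroid medians from -0.54 in locked females to 0.20 in running females. Leukocyte and fibroblast medians were 0.53 and 0.41 in running females, and between -0.06 and 0.05 in the other blocks. In the limma fit 1 of 24 liver markers was called (4.17%, against 11.8% of all genes), Mup20, as higher. That call was lost without MC replicate 31, MH replicate 8 or MH replicate 11. Of 6 tested brown adipocyte markers 2 were called (33.3%), Elovl3 as higher and Cox8b as lower. Elovl3 was not called without MC replicate 31 or MCE replicate 26. Of 10 skeletal muscle markers 2 were called (20.0%), Actn2 as higher and Tcap as lower. Single calls were Bpgm in erythroid cells (lower, 11.1% of the list), Flt1 in endothelium (lower, 8.33%) and Mfap5 in fibroblasts (higher, 10.0%). The adipocyte, leukocyte, smooth muscle, tendon and brain lists held 0 calls, and so did the 5 sex check genes.

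By position, called genes were spread over the genome. The share called ran from 9.02% on chromosome 19 to 15.2% on chromosome 12 among chromosomes other than M. Around Myl1 on chromosome 1, 5 of 34 genes that started within 5 Mb were called (14.7%), 23 of 137 within 10 Mb (16.8%) and 29 of 221 within 20 Mb (13.1%), beside 11.8% over all genes. Myl1 itself is left out of these counts.

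The label effect itself seldom differed between blocks by a test of that difference. The genotype by sex interaction was called for 1 gene of 14321 (0.00698%) and the genotype by wheel interaction for 1 gene (0.00698%), with 1101 and 1612 genes at an unadjusted p under 0.05. Any difference among the 4 blocks was called for 4 (0.0279%). By DESeq2 the wheel interaction had 22 calls and any difference 28, and by edgeR's quasi-likelihood test 0 and 1. Mical2, an actin-oxidising enzyme, carried the sex interaction. In locked mice its lowest, median and highest levels were 36.4, 45.1 and 55.3 CPM in control females, 34.95, 44.6 and 53.3 in labelled females, 21.1, 26.5 and 33.5 in control males, and 36.4, 42.8 and 53.6 in labelled males. The males did not overlap and the females did, with fold changes of 0.69 and -0.03 (female minus male -0.63 over both wheels, limma adjusted p = 0.00873).

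The insulin genes Ins1 and Ins2 passed the pooled test with the largest fold changes among called genes and owed them to 1 block. Ins2 had 753 counts summed over the 7 labelled running males, with 10 or more in 7 of 7, and 120 over the 7 running control males, where 1 mouse held 108. In the 6 other groups the sum was 8 or less. Ins1 had 504 and 91 counts in the same groups, and 5 or less elsewhere. Their pooled fold changes of 4.24 and 3.82 are therefore not an effect shared by the blocks, and their sign was not the same in each. Both rest on levels near 0 in most mice, so the size of the fold is not interpretable. The islet marker list of which they are part was higher by 0.49 (permutation adjusted p = 0.033), with 4 of 8 markers in the table.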

How the data were processed

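The authors deposited 1 table of raw counts, whole numbers of reads per Ensembl gene with 1 column per mouse and no normalization or pooling; genes with low totals had been removed. The submitters' processing notes name GRCm38, mm10, R 4.0.3 and edgeR 3.38.4, while the aligner, the counter and the use of strand are not given in the sources used here. The labels describe a 3′ mRNA kit, the paper's methods stranded total RNA libraries, and the 2 would give different coverage of each gene.

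Counts of 15539 genes were scaled by TMM in edgeR (4.0.16), filtered by filterByExpr over the 8 groups (14321 kept), weighted by voom and fitted in limma (3.58.1, R 4.3.3) with block and genotype as terms. Calls were made at 0.05 or less after Benjamini-Hochberg adjustment; block effects and interactions came from a fit of 8 group means. The pooled test was also run on simulated counts of 14190 genes. It called 34 of 100 genes changed by 0.25 on the log2 scale and 64 of 100 changed by 0.5. Of its 110 calls 12 were false. Single values and marker lists, as mean log2(CPM + 0.5), were compared by two-sided permutation of labels within blocks (1e+05 resamples). Symbols matched GENCODE M21 for 15503 genes, 13543 of them with a 3′UTR. Median CPM of a gene was compared between mice, not between genes.

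Named genes were Elavl1 and Myl1; among called genes with at least 10 counts on average and the same sign in each block, the 10 largest increases and decreases and the 6 of each with the smallest p; called members of the gene lists; and up to 3 called genes for each interaction. Members and lists were chosen with earlier results of these data known. Depth, 6639782 to 21633091 counts per mouse, limits genes of a few CPM. Some results are not reported here.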

Additional observations from a re-analysis of the deposited data

Results flagged for a closer look

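The genotype label effect differed between the sexes for Mical2 (interaction adjusted p = 0.00873), where it was -0.03 and -0.33 on the log2 scale in locked and running females and 0.69 and 0.22 in locked and running males. The test for any difference among blocks also called it (adjusted p = 0.00402). The label effect differed between the wheels for Gm37524 (adjusted p = 0.0381), a gene of few counts on chromosome 1 with 1.90 and 0.82 in locked females and males and -0.60 and -0.29 in running ones. Its median in locked control females was 0.43 CPM, so counting error is large.

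Any difference among the 4 blocks was called for Ins1 (adjusted p = 0.00402), Ins2 (adjusted p = 0.014) and Senp3 (adjusted p = 0.0356). Senp3, named after its values were seen, had fold changes of 0.49, 0.22, -0.80 and 0.81 in locked females, running females, locked males and running males. Among 24 groups of 7 mice examined for Elavl1, Myl1 and library totals, no mouse stood apart from its group by the criterion used, although chance alone would give about 1 in 20.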

How the results depend on the processing

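Under the 13 settings other than left-out blocks and covariates added later, 141 of the 178 named genes kept their side of the threshold and their sign. The called genes numbered 1654 with edgeR's quasi-likelihood test, of which 1524 were called in the same direction by the main fit, 1751 with DESeq2 and 2207 with sample quality weights. Without 1 mouse they numbered 1467 (without MHE replicate 22) to 1966 (without FH replicate 34), and those with the same sign in each block 1287 to 1680. With the slow fibre list as a covariate they fell to 37, with 35 of the same sign, and Myl1 was at -0.26 (adjusted p = 0.28), and Myl3 changed sign to -0.017; with Schwann markers they were 856 and 755. Leaving out the male locked block gave 1079, and the male running block 883 (851 with the same sign), where fewer mice also enter; without the female locked block Gm37524 was at -0.066, and without the male locked block Mical2 was at -0.059.

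The sex interaction had 6 calls with limma trend, 8 with sample quality weights and 1 to 4 without 1 mouse. The wheel interaction had 0 with edgeR or limma trend, 22 with DESeq2, 6 with upper-quartile scaling, 4 with sample quality weights, 4 with at least 10 counts in every mouse, and 0 to 6 without 1 mouse. Any block difference had 1 with edgeR or with 10 counts in every mouse, 28 with DESeq2, and 2 to 9 without 1 mouse. The cause was not tested. Marker lists that differed numbered 5, in place of 3, without TMM.

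Without 1 mouse, Elavl1 ranged from 0.10 to 0.15 and Myl1 from -0.69 to -0.59. Mouse numbers are shared only between sexes and wheels, never between genotypes of 1 block. Of 22 pairs with the same number 8 had deviations correlated over 0.1 (median 0.04, lowest -0.28, highest 0.47). Whether mice of such a pair share more than the number was not tested. With the mouse number as a random replicate block (consensus correlation 0.033) 1676 genes were called, 1437 with the same sign.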
